A study of Mus musculus with 12 samples.

Results

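The genes described are 35 genes of ribosome biogenesis and MYC-driven growth: nucleolar scaffold proteins, RNA polymerase I subunits, small nucleolar ribonucleoprotein (snoRNP) proteins, ribosome assembly factors, and the pyrimidine and polyamine synthesis enzymes Cad, Odc1 and Srm. They were taken from a list of names and matched by mouse symbol to the Ensembl IDs of the count files. All 35 were found among 56748 gene IDs, and all 35 passed the filter on low counts that left 13535 tested genes. Their counts ran from 180 (Rrp9 in hematogenous 4) to 119404 (Ncl in lymphatic 2).

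The study measured poly(A) RNA by bulk RNA-seq in Eµ-Myc lymphoma, a line of mouse B lymphoma cells that carries a Myc transgene under the immunoglobulin heavy chain enhancer, which is active in B cells. The culture group (4 libraries) holds cells taken straight from culture. The lymphatic group (4 libraries) holds lymphoma cells sorted from lymph nodes of C57BL/6J mice that they had reached through lymphatic vessels, at day 11 after injection. The hematogenous group (4 libraries) holds cells sorted from lymph nodes reached through the blood, at day 18. The line and its transgene are common to all 12 libraries, so no group lacks MYC excess, and route and day change together and cannot be told apart. Age and sex of the mice, treatments, the sort marker and the number of mice behind a library are not given in the sources used here. Even for the cultured cells the labelled tissue is lymph node. Whether replicates came from separate mice or cultures is not stated either, so a p-value here reflects the spread among these libraries, which may be technical. Libraries are called by group and replicate number.

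Ribosomes are built in the nucleolus, where RNA polymerase I makes a long precursor that is modified, cut and folded together with ribosomal proteins. Box C/D snoRNPs methylate the precursor, box H/ACA snoRNPs turn uridines into pseudouridines, and large sets of assembly factors carry the small and the large subunit to the cytoplasm. MYC is known to raise transcription of many genes of this machinery and of nucleotide and polyamine synthesis, and B lymphomas with MYC excess are known for large nucleoli and high protein synthesis.

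MYC and its partner MAX bind the E-box, whose canonical form is CACGTG, and this motif was searched in the promoters, both strands being the same for a palindrome. RefSeq promoter windows (GRCm38.p6, 250 bases before to 50 after the start site) were matched for 28 of the 35 genes. CACGTG was in 5 of the 28 windows (17.9%), those of Mybbp1a, Wdr43, Utp20, Pes1 and Nop2, and in 1957 of 27025 windows of all genes in the table (7.24%). The wider E-box CANNTG, which includes CACGTG, was in 17 of 28 windows (60.7%) and in 72.1% of all windows. Below are 100 bases around the start site for 4 of these 5 genes, shown because they hold the MYC motif next to the start of transcription. Each of the 5 windows holds the motif 1 time, and the first 4 genes in list order were taken, whatever their calls. Of the 4, Wdr43 and Pes1 rose in both lymph node groups, and Mybbp1a and Utp20 were called in no comparison over all libraries. The motif is in capitals and each stretch is written 5′ to 3′ on the strand of the gene.
Mybbp1a, chr11:72441277-72441376, plus strand: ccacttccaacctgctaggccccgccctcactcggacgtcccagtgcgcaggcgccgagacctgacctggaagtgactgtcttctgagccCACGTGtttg
Wdr43, chr17:71616155-71616254, plus strand: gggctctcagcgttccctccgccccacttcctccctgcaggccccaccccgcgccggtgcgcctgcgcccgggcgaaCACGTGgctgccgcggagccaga
Utp20, chr10:88826765-88826864, minus strand: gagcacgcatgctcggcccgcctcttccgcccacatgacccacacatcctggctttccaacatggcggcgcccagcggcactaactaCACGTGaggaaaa
Pes1, chr11:3963900-3963999, plus strand: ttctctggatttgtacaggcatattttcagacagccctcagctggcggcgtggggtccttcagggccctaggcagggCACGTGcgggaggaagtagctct
The motif began 40 bases after the start site in Mybbp1a, 17 after it in Wdr43, 37 after it in Utp20 and 2 after it in Pes1. It began 60 bases before the start site in Nop2 (position -60). A match of letters is a description of the sequence and says nothing of binding in these cells.

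Library totals ran from 5286775 to 25302016 assigned counts. Lymphatic 4 stood apart from the other libraries: ribosomal protein genes took 15.9% of its counts against 7.56% to 9.82% in the other 11, and 6.78% of its aligned reads fell outside genes against 9.38% to 15.6%. B cell markers were present throughout (summed level 2139 to 3157 CPM, counts relative to library size after scaling with TMM factors). Of 7 tested B cell markers, edgeR called 2 higher and 2 lower in lymphatic against culture libraries, with log2 differences from -3.41 to 0.84. In hematogenous against culture libraries 4 were called higher and 0 lower, and between the routes 1 higher and 3 lower in lymphatic libraries. Of all tested genes 13.4% and 13%, 13.9% and 13.9%, and 11.4% and 10.9% were called higher and lower in these comparisons. The summed level of 10 T cell markers was 0 to 0.92 CPM in culture, where Cd3d, Cd8a, Trbc1, Trbc2 and Cd5 had 0 counts, 18.1 to 35.2 CPM in lymphatic 1 to 3, 99.0 CPM in lymphatic 4, and 5.32 to 16.2 CPM in hematogenous libraries. The summed level of 10 macrophage markers was 14.8 to 19.9 CPM in culture, where 6 of them had 0 counts (Lyz2, C1qa, C1qb, C1qc, Fcgr1 and Ly6c2), 28.7 to 60.7 CPM in lymphatic 1 to 3, 82.1 CPM in lymphatic 4 and 19.8 to 27.2 CPM in hematogenous libraries. Summed levels over culture, lymphatic and hematogenous libraries were 18.7 to 22.7, 0.54 to 4.22 and 0 to 0.80 CPM for NK cell markers, 113 to 124, 106 to 147 and 91.7 to 122 CPM for plasma cell markers, 76.2 to 80.7, 80.2 to 115 and 139.6 to 168 CPM for stromal and endothelial markers, and 11.3 to 29.9, 2.30 to 15.1 and 3.11 to 6.36 CPM for erythroid markers. The T cell marker sum was higher in every lymph node library than in every culture library, and the macrophage marker sum was so in lymphatic libraries and overlapped culture in hematogenous ones. Of 6 tested macrophage markers, 4 were called higher and 2, Csf1r and Itgam, lower in each lymph node group against culture. The part of these cells in the results was not tested. In bulk samples a change in the share of cells of a type and a change in RNA per cell cannot be told apart.

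The 35 genes were higher as a group in lymphatic libraries, by small amounts. Their summed level was 14222, 13917, 14167 and 13418 CPM in culture 1 to 4, 18909.7, 19421, 17106 and 21901 CPM in lymphatic 1 to 4, and 15226, 16137, 15302 and 15832 CPM in hematogenous 1 to 4, so the groups did not overlap in this sum, in which the abundant Npm1 and Ncl weigh most. With each gene weighted alike, the mean log2 CPM of culture libraries ran from 7.85 to 7.96, that of hematogenous libraries from 7.88 to 8.03 and that of lymphatic libraries from 8.09 to 8.39, so that lymphatic libraries were again the highest and culture and hematogenous libraries overlapped. Of the 35, 17 rose and 0 fell in lymphatic against culture libraries (edgeR, adjusted p under 0.05), where 13.4% of all tested genes were called higher and 13% lower. At an unadjusted p under 0.05 edgeR gave 22 higher and 0 lower, and DESeq2 and limma-voom also called 0 lower. The median log2 difference was 0.37 over the 35 genes and 0.038 over all tested genes. Their count of 17 is a larger share than the background, and the largest called change, that of Npm1, was 0.70 on the log2 scale. The count was 9 without culture 2, without culture 3 or without culture 4, and 8 in a fit of the lymphatic and culture libraries alone. All tested genes called in either direction were 3569 over 12 libraries, 2664 to 2829 in the fits that gave 9, and 2600 in the fit that gave 8. Of the 17 calls, 8 held when each library was left out in turn and under all 10 other settings: Npm1, Ncl, Nop56, Nop58, Dkc1, Wdr43, Pes1 and Odc1. The calls of Fbl, Nop16, Wdr74 and Mrto4 were lost without culture 2, without culture 3 or without culture 4.

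In hematogenous against culture libraries 4 of the 35 rose (Ncl, Dkc1, Wdr43 and Pes1) and 4 fell (Nolc1, Nop14, Rrp12 and Wdr74), where 13.9% of all tested genes were called higher and 13.9% lower. These shares are near the background. The median log2 difference was 0.07 over the 35 genes and -0.00075 over all tested genes. The count of higher genes was 11 without lymphatic 4, 14 in a fit of the hematogenous and culture libraries alone, and 2 when any single library among culture 1 to 4 and hematogenous 2 to 4 was left out. All tested genes called in either direction were 3760 over 12 libraries, 5930 without lymphatic 4 and 6344 in the fit of these groups alone. They were 3125 to 3452 in the fits with a library left out that gave 2. The fall of Nolc1 and of Wdr74 held when each library was left out in turn and under all 10 other settings.

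Between the routes, 13 of the 35 were higher and 0 lower in lymphatic than in hematogenous libraries, where 11.4% of all tested genes were called higher and 10.9% lower. At an unadjusted p under 0.05 edgeR gave 19 higher and 1 lower, and DESeq2 and limma-voom called 0 lower. The median log2 difference was 0.38 over the 35 genes and 0.032 over all tested genes. Nolc1, Gnl3, Polr1c, Nop56, Rrp12, Wdr74 and Odc1 kept this call when each library was left out in turn and under all 10 other settings. Both comparisons with culture use the same culture libraries, so their values are given side by side and are not independent of each other.

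Lymphatic 4 was left out to see what rested on it, which leaves 13768 tested genes. Against culture 19 of the 35 then rose in lymphatic libraries and 0 fell (17.7% and 17.9% of all tested genes), with a median log2 difference of 0.27. Of the 35, 11 rose and 5 fell in hematogenous against culture libraries (21.8% and 21.3% of all tested genes). Between the routes 15 were higher and 1, Gar1, was lower in lymphatic libraries (15.1% and 16.4% of all tested genes), with a median log2 difference of 0.23. All 17 genes called in lymphatic against culture libraries, all 8 in hematogenous against culture libraries and all 13 between the routes were called in the same direction without lymphatic 4.

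**Figure D1:**
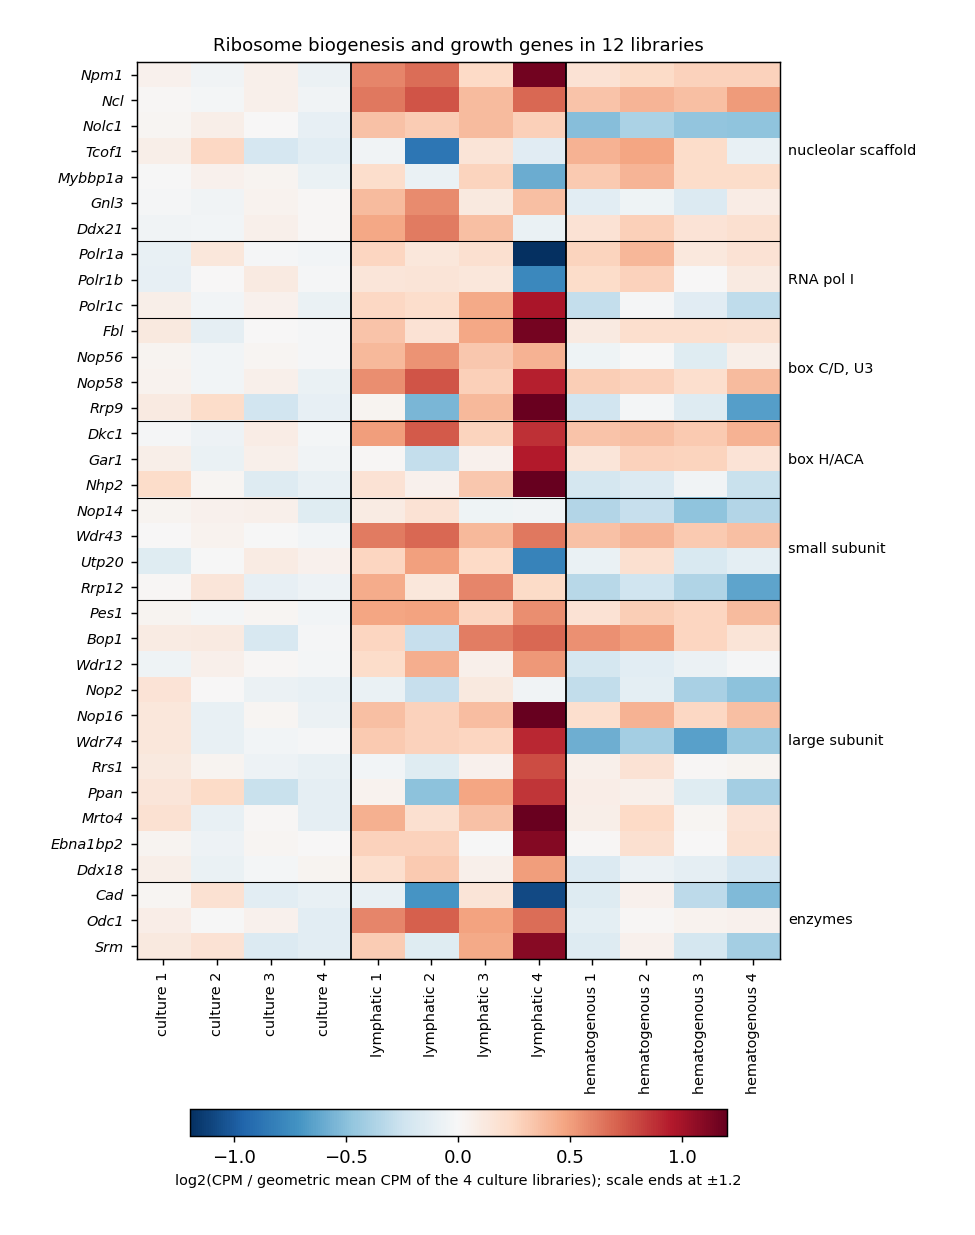
Colour shows the log2 ratio of CPM in each library (columns, 12 libraries in 3 groups) to the geometric mean of the 4 culture libraries for each of the 35 genes (rows, grouped by role), on a scale that ends at 1.2 either way. Lymphatic 4 holds the highest level of 19 genes and the lowest of 6, and Nolc1, Rrp12 and Wdr74 are red in lymphatic and blue in hematogenous columns.

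**Figure D2:**
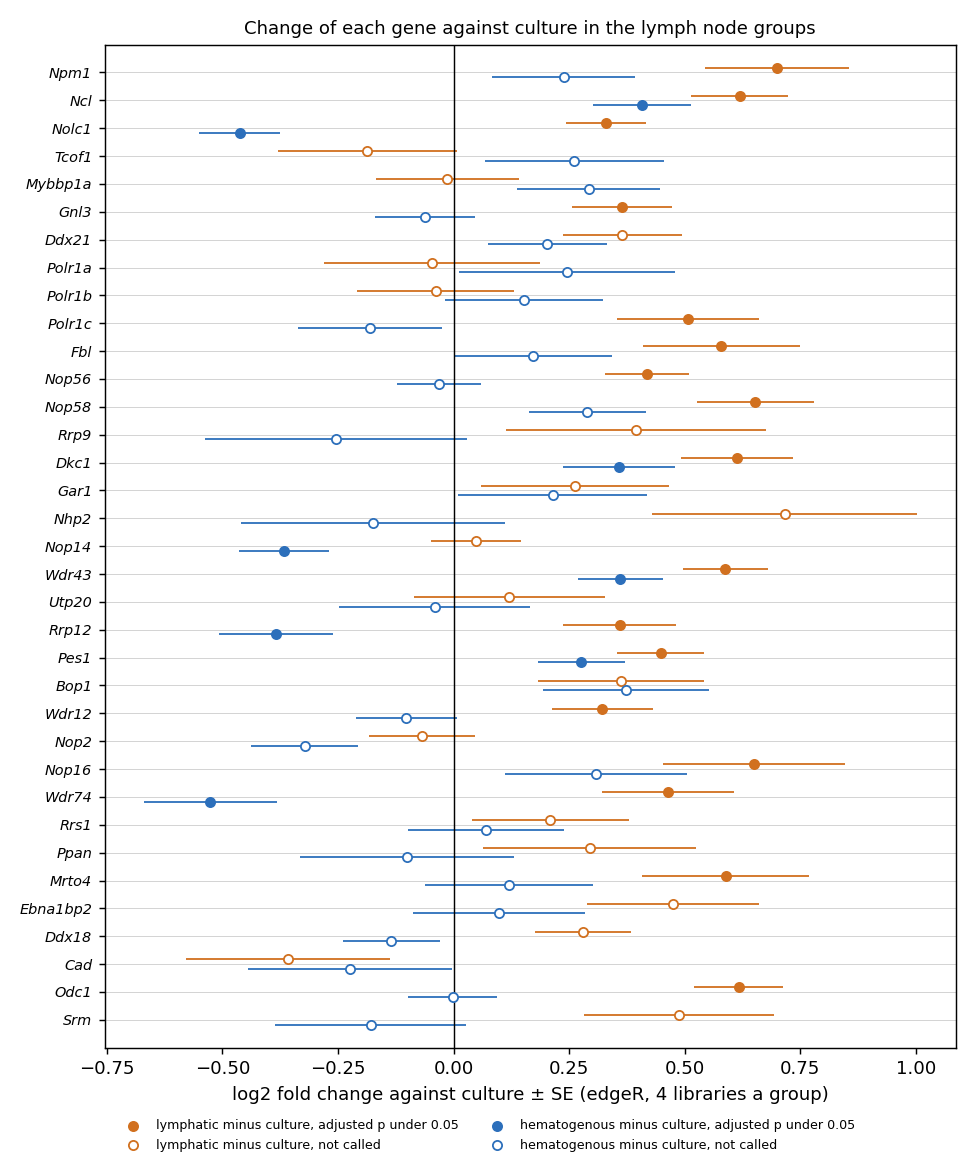
Points are log2 fold changes against culture with bars of ± SE for the 35 genes (rows), orange for lymphatic and blue for hematogenous libraries, filled where the edgeR adjusted p is under 0.05. Filled orange points lie right of 0 for all 17 called genes, and filled blue points lie on both sides, 4 each.

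Among the 7 nucleolar scaffold and regulator genes, 4 rose and 0 fell in lymphatic against culture libraries (Npm1, Ncl, Nolc1 and Gnl3), and 1 rose (Ncl) and 1 fell (Nolc1) in hematogenous libraries. Of all tested genes 13.4% were called higher and 13% lower in lymphatic and 13.9% each way in hematogenous against culture libraries. The hematogenous counts are near that share. Npm1 encodes nucleophosmin, an abundant nucleolar chaperone of ribosome assembly. It stood at 2724, 2550.3, 2751 and 2514 CPM in culture 1 to 4, at 3952, 4183, 3099 and 5871 in lymphatic 1 to 4 and at 2964, 3083, 3196 and 3185 in hematogenous 1 to 4. Every lymph node library was above every culture library, and lymphatic 4 was the highest of all, while lymphatic 3 lay among the hematogenous libraries. The log2 difference was 0.70 ± 0.16 (SE) for lymphatic against culture (adjusted p = 0.00452), 0.24 ± 0.16 for hematogenous against culture (adjusted p = 0.295) and 0.46 ± 0.16 for lymphatic against hematogenous (adjusted p = 0.0479). Without lymphatic 4 the log2 differences were 0.50, 0.24 and 0.26, with adjusted p of 0.000632, 0.0368 and 0.0447. The call between the routes held without lymphatic 3 and without lymphatic 4, and was lost without any other library and under 5 of 10 other settings (highest adjusted p = 0.127).

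Ncl encodes nucleolin, an RNA-binding protein of rRNA transcription and early processing. Its level was at 2843, 2772, 2946 and 2734 CPM in culture 1 to 4, at 4372, 4762, 3673 and 4539 in lymphatic 1 to 4 and at 3586, 3752, 3625 and 4021 in hematogenous 1 to 4. All 8 lymph node libraries exceeded all 4 culture libraries, and lymphatic 3 lay within the range of the hematogenous libraries. Its log2 difference was 0.62 ± 0.11 (SE) for lymphatic against culture (adjusted p = 0.000668), 0.41 ± 0.11 for hematogenous against culture (adjusted p = 0.00939) and 0.21 ± 0.10 for lymphatic against hematogenous (adjusted p = 0.164). The gene rose in both lymph node groups, and the difference between the routes did not pass the test. Its call in hematogenous libraries held with each library left out in turn and was lost with length and GC offsets (adjusted p = 0.146).

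Nolc1 encodes a nucleolar phosphoprotein that binds snoRNPs and helps to hold the nucleolus together. Levels were at 744, 769, 737 and 688 CPM in culture 1 to 4, at 938, 908, 956 and 892 in lymphatic 1 to 4 and at 514, 563, 529 and 526 in hematogenous 1 to 4. The 3 groups did not overlap: lymphatic libraries were the highest, culture libraries in between and hematogenous libraries the lowest, and lymphatic 4 was the lowest of its group. For this gene the log2 difference was 0.33 ± 0.087 (SE) for lymphatic against culture (adjusted p = 0.0126), -0.46 ± 0.087 for hematogenous against culture (adjusted p = 0.00112) and 0.79 ± 0.088 for lymphatic against hematogenous (adjusted p = 6.59e-05). Leaving out lymphatic 4 gave log2 differences of 0.34, -0.46 and 0.80, with adjusted p of 0.00117, 2.73e-05 and 9.85e-07. This was the smallest spread of the 35 genes in the lymphatic group, with a coefficient of variation of 3.11%. The call of Nolc1 in lymphatic against culture libraries held with each library left out in turn. It was lost with no scaling factor, with no filter on low counts and in a fit of the 2 groups alone (highest adjusted p = 0.114).

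Gnl3 encodes nucleostemin, a nucleolar GTPase of large subunit processing. Gnl3 stood at 427, 418, 443 and 435 CPM in culture 1 to 4, at 559, 639, 468 and 552 in lymphatic 1 to 4 and at 394, 414, 384 and 459 in hematogenous 1 to 4. Lymphatic libraries were above all others, with lymphatic 3 only just above hematogenous 4, and culture and hematogenous libraries overlapped. The differences were on the log2 scale 0.36 ± 0.11 (SE) for lymphatic against culture (adjusted p = 0.023), -0.062 ± 0.11 for hematogenous against culture (adjusted p = 0.731) and 0.43 ± 0.11 for lymphatic against hematogenous (adjusted p = 0.0125). The call against culture was lost without lymphatic 2 or without any one of the 4 culture libraries.

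Tcof1, Mybbp1a and Ddx21 were called in no comparison. Tcof1 encodes treacle, a cofactor of rRNA transcription, and its level was 110.03 to 224 CPM in lymphatic, 175 to 238 CPM in culture and 188 to 278 CPM in hematogenous libraries. Mybbp1a encodes a nucleolar protein of rRNA transcription and processing. It stood at 661, 689, 677 and 629 CPM in culture 1 to 4, 766, 629, 797 and 439 CPM in lymphatic 1 to 4 and 826, 883, 773 and 771 CPM in hematogenous 1 to 4, so that only lymphatic 4 fell far below the other libraries. Its log2 difference between hematogenous and culture libraries was 0.29 ± 0.15 (adjusted p = 0.187) over all libraries and 0.29 ± 0.082 (adjusted p = 0.00822) without lymphatic 4 (the 8 libraries compared were the same in both, and the shared estimate of spread was not). Ddx21 encodes an RNA helicase that acts with RNA polymerase I. It reached 985, 1095, 918 and 673 CPM in lymphatic 1 to 4 against 693, 694, 743 and 720.0 CPM in culture 1 to 4, so lymphatic 1 to 3 were above culture and lymphatic 4 was below it. For lymphatic against culture the log2 difference was 0.37 ± 0.13 (adjusted p = 0.0514), and it was 0.48 ± 0.075 (adjusted p = 0.000124) without lymphatic 4.

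Of the RNA polymerase I subunits described, Polr1c was called over all libraries and Polr1a and Polr1b were not. Polr1a and Polr1b encode the 2 largest subunits, which form the catalytic centre, and Polr1c encodes a subunit shared with RNA polymerase III. Polr1a stood at 199, 231, 209 and 206 CPM in culture 1 to 4, at 253, 232, 242 and 91.2 in lymphatic 1 to 4 and at 254, 278, 231 and 238 in hematogenous 1 to 4. Lymphatic 4 was far below all other libraries, and the remaining lymphatic and hematogenous libraries overlapped. The log2 difference of Polr1a was -0.047 ± 0.23 (adjusted p = 0.905) for lymphatic against culture, and 0.19 ± 0.081 (adjusted p = 0.0766) without lymphatic 4. For hematogenous against culture it was 0.24 ± 0.23 (adjusted p = 0.496), and 0.25 ± 0.076 (adjusted p = 0.0145) without lymphatic 4, where it was called higher. Polr1b showed the same single low library, with 183, 184, 182 and 96.9 CPM in lymphatic 1 to 4 and 155 to 200.3 CPM across culture and hematogenous libraries. No comparison of it passed the test, with or without lymphatic 4.

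Polr1c was the subunit that rose. Levels of Polr1c were at 86.6, 80.4, 85.2 and 77.9 CPM in culture 1 to 4, at 98.1, 95.4, 113 and 163 in lymphatic 1 to 4 and at 67.5, 81.7, 75.1 and 66.9 in hematogenous 1 to 4. All lymphatic libraries were above all others, lymphatic 4 the most, and hematogenous libraries reached from below culture into its range. Its log2 difference was 0.51 ± 0.15 (SE) for lymphatic against culture (adjusted p = 0.0262), -0.18 ± 0.16 for hematogenous against culture (adjusted p = 0.443) and 0.69 ± 0.15 for lymphatic against hematogenous (adjusted p = 0.00636). Without lymphatic 4 these log2 differences became 0.30, -0.18 and 0.48, with adjusted p of 0.0186, 0.113 and 0.001. The call against culture was lost without any one of the 4 culture libraries, and that between the routes held in every such fit.

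All 3 core proteins of box C/D snoRNPs on the list rose in lymphatic against culture libraries, where 13.4% of all tested genes were called higher. In hematogenous against culture libraries 0 of these box C/D proteins were called, where 13.9% of all tested genes were called in each direction. Fbl encodes fibrillarin, the methyltransferase of these particles. It stood at 286, 246, 264 and 262 CPM in culture 1 to 4, at 336, 297, 364 and 584 in lymphatic 1 to 4 and at 284, 303, 304 and 301 in hematogenous 1 to 4. Lymphatic 4 was the highest by a wide margin, lymphatic 1 to 4 were all above culture, and lymphatic 2 lay within the hematogenous range. Fbl had a log2 difference of 0.58 ± 0.17 (SE) for lymphatic against culture (adjusted p = 0.0219), 0.17 ± 0.17 for hematogenous against culture (adjusted p = 0.512) and 0.41 ± 0.17 for lymphatic against hematogenous (adjusted p = 0.0998). Without lymphatic 4 the values were 0.32, 0.17 and 0.15, with adjusted p of 0.00546, 0.0754 and 0.176.

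Nop56 encodes a scaffold protein of the same particle. Its levels were at 452, 431, 449.6 and 438 CPM in culture 1 to 4, at 579, 642, 552 and 591 in lymphatic 1 to 4 and at 426, 439.7, 401 and 465 in hematogenous 1 to 4. The lymphatic libraries lay above all 8 others, lymphatic 4 among them without standing out, and culture and hematogenous libraries overlapped. Nop56 had a log2 difference of 0.42 ± 0.091 (SE) for lymphatic against culture (adjusted p = 0.00386), -0.032 ± 0.091 for hematogenous against culture (adjusted p = 0.839) and 0.45 ± 0.091 for lymphatic against hematogenous (adjusted p = 0.00341). Nop58, its partner in the particle, stood at 419.7, 398, 424 and 385 CPM in culture 1 to 4, at 598, 687, 496 and 778 in lymphatic 1 to 4 and at 499.8, 492, 468 and 529 in hematogenous 1 to 4. Every lymph node library was above culture, and lymphatic 3 lay among the hematogenous libraries. Nop58 had a log2 difference of 0.65 ± 0.13 (SE) for lymphatic against culture (adjusted p = 0.00172), 0.29 ± 0.13 for hematogenous against culture (adjusted p = 0.108) and 0.36 ± 0.13 for lymphatic against hematogenous (adjusted p = 0.0528). Leaving out lymphatic 4 gave 0.54, 0.29 and 0.25, with adjusted p of 0.000347, 0.0139 and 0.0557, so that the gene was then also called in hematogenous against culture libraries.

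Rrp9 encodes a protein of the U3 snoRNP, which guides the cuts that release the small subunit RNA. It was the least abundant of the 35 genes by CPM, at 58.3, 63.2, 46.2 and 50.5 CPM in culture 1 to 4, 55.5, 37.1, 70.7 and 123 CPM in lymphatic 1 to 4 and 46.1, 53.4, 48.5 and 34.2 CPM in hematogenous 1 to 4. Lymphatic libraries covered the widest range, from below all culture libraries in lymphatic 2 to the highest of all in lymphatic 4. No comparison passed the test.

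Of the 3 box H/ACA snoRNP genes, Dkc1 rose in both lymph node groups. Dkc1 encodes dyskerin, the pseudouridine synthase. Its levels were at 347, 335, 372 and 344 CPM in culture 1 to 4, at 495, 580.1, 421 and 643 in lymphatic 1 to 4 and at 442, 449, 434 and 467 in hematogenous 1 to 4. All lymph node libraries were above culture, and lymphatic 3 was below all hematogenous libraries. Dkc1 had a log2 difference of 0.61 ± 0.12 (SE) for lymphatic against culture (adjusted p = 0.00209), 0.36 ± 0.12 for hematogenous against culture (adjusted p = 0.0409) and 0.26 ± 0.12 for lymphatic against hematogenous (adjusted p = 0.146). The call in hematogenous libraries was lost without any one of the 4 culture or 4 hematogenous libraries. It was also lost with no filter on low counts, with the replicate block and with length and GC offsets (highest adjusted p = 0.108).

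Nhp2 encodes a small protein of the same particle, and its level in lymphatic 4 stood apart. Nhp2 stood at 208, 182, 161 and 169 CPM in culture 1 to 4, at 201, 186, 224 and 571 in lymphatic 1 to 4 and at 154, 160.0, 174 and 149 in hematogenous 1 to 4. Lymphatic 1 to 3 overlapped culture and lay just above the hematogenous libraries, and lymphatic 4 was far above the next library. Nhp2 had a log2 difference of 0.72 ± 0.29 (SE) for lymphatic against culture (adjusted p = 0.0813), -0.17 ± 0.29 for hematogenous against culture (adjusted p = 0.71) and 0.89 ± 0.29 for lymphatic against hematogenous (adjusted p = 0.0397). Without lymphatic 4 the log2 differences were 0.17, -0.17 and 0.35, with adjusted p of 0.179, 0.134 and 0.0121. The call between the routes was lost without any one of the culture or hematogenous libraries, with limma-voom, with the replicate block and in a fit of the 2 groups alone (highest adjusted p = 0.102). Gar1, the remaining box H/ACA protein, had 156, 127, 160.2 and 299 CPM in lymphatic 1 to 4 and 171, 187, 186 and 173 CPM in hematogenous 1 to 4. Between the routes its log2 difference was 0.049 ± 0.20 (adjusted p = 0.89) over all libraries and -0.29 ± 0.087 (adjusted p = 0.0185) without lymphatic 4, a change of sign that rests on that library.

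Of the 4 small subunit genes, Wdr43 rose and Nop14 and Rrp12 fell in hematogenous against culture libraries. There 13.9% of all tested genes were called in each direction. Wdr43 encodes a protein of the early small subunit processome, and its promoter stretch is printed above. Its level was at 302, 310.3, 299.7 and 294 CPM in culture 1 to 4, at 463, 485, 394 and 468 in lymphatic 1 to 4 and at 386, 400.1, 375 and 387 in hematogenous 1 to 4. Culture libraries were lowest without overlap, and lymphatic 3 lay within the hematogenous range. Wdr43 had a log2 difference of 0.59 ± 0.092 (SE) for lymphatic against culture (adjusted p = 0.00035), 0.36 ± 0.092 for hematogenous against culture (adjusted p = 0.00877) and 0.23 ± 0.092 for lymphatic against hematogenous (adjusted p = 0.0912). This was the lowest adjusted p but that of Odc1 among the 35 genes in lymphatic against culture libraries.

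Rrp12 encodes a factor that helps export both subunits from the nucleus. Rrp12 stood at 102, 113, 95.2 and 97.4 CPM in culture 1 to 4, at 139, 112, 153 and 119.6 in lymphatic 1 to 4 and at 80.8, 85.9, 79.3 and 65.7 in hematogenous 1 to 4. Hematogenous libraries were below all others without overlap, and lymphatic 2 lay within the culture range. Rrp12 had a log2 difference of 0.36 ± 0.12 (SE) for lymphatic against culture (adjusted p = 0.0436), -0.38 ± 0.12 for hematogenous against culture (adjusted p = 0.0317) and 0.74 ± 0.12 for lymphatic against hematogenous (adjusted p = 0.000939). The call against culture was lost in lymphatic libraries without 9 of the 12 libraries in turn, all but lymphatic 2, lymphatic 4 and hematogenous 4, and in hematogenous libraries without culture 1, culture 2, hematogenous 1, hematogenous 3 or hematogenous 4. The difference between the routes kept its call in all 12 such fits.

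Nop14 encodes a scaffold of the small subunit processome. Its levels were at 147, 149, 149.9 and 129.6 CPM in culture 1 to 4, at 154, 162, 139 and 139.6 in lymphatic 1 to 4 and at 112, 119, 103 and 113 in hematogenous 1 to 4. Hematogenous libraries were below all others, and lymphatic and culture libraries overlapped. Nop14 had a log2 difference of 0.048 ± 0.097 (SE) for lymphatic against culture (adjusted p = 0.754), -0.37 ± 0.098 for hematogenous against culture (adjusted p = 0.0114) and 0.42 ± 0.097 for lymphatic against hematogenous (adjusted p = 0.00804). Utp20, a very long protein of the same processome, was called in no comparison over all libraries. It stood at 194, 215, 231 and 223 CPM in culture 1 to 4 and 257, 303, 254 and 124 CPM in lymphatic 1 to 4, with lymphatic 4 far below and lymphatic 1 to 3 above culture. Without lymphatic 4 its log2 difference was 0.33 ± 0.098 (adjusted p = 0.0167) for lymphatic against culture.

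Of the 11 large subunit assembly genes, 5 rose in lymphatic against culture libraries (Pes1, Wdr12, Nop16, Wdr74 and Mrto4), and 1 rose (Pes1) and 1 fell (Wdr74) in hematogenous against culture libraries. Of all tested genes 13.4% were called higher in lymphatic and 13.9% each way in hematogenous against culture libraries. The hematogenous counts are not above that share. Pes1, Bop1 and Wdr12 form a complex needed to cut the precursor of the large subunit RNA. Pes1, whose promoter stretch is printed above, stood at 266, 256, 264 and 254 CPM in culture 1 to 4, at 360.2, 364, 310.2 and 383 in lymphatic 1 to 4 and at 292, 318, 311 and 338 in hematogenous 1 to 4. All lymph node libraries were above culture, and lymphatic 3 lay within the hematogenous range. Pes1 had a log2 difference of 0.45 ± 0.095 (SE) for lymphatic against culture (adjusted p = 0.00321), 0.28 ± 0.095 for hematogenous against culture (adjusted p = 0.0428) and 0.17 ± 0.094 for lymphatic against hematogenous (adjusted p = 0.207). The call in hematogenous libraries was lost without lymphatic 1, without any one of the 4 culture libraries, without hematogenous 2, 3 or 4, with no filter on low counts, with the replicate block and with length and GC offsets (highest adjusted p = 0.224).

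Wdr12, the WD-repeat protein of this complex, was called in lymphatic libraries and not in hematogenous ones against culture. Its level was at 159, 171, 166 and 162 CPM in culture 1 to 4, at 191, 222, 171 and 236 in lymphatic 1 to 4 and at 142, 151, 156 and 163 in hematogenous 1 to 4. Lymphatic libraries were above all hematogenous libraries, and lymphatic 3 was at the top of the culture range. Wdr12 had a log2 difference of 0.32 ± 0.11 (SE) for lymphatic against culture (adjusted p = 0.0433), -0.10 ± 0.11 for hematogenous against culture (adjusted p = 0.552) and 0.42 ± 0.11 for lymphatic against hematogenous (adjusted p = 0.0138). Against culture the call held without lymphatic 3 and without lymphatic 4, and was lost without any other library. Bop1, the third protein of the complex, was called in no comparison. Its log2 difference from culture was 0.36 ± 0.18 (adjusted p = 0.158) in lymphatic and 0.37 ± 0.18 (adjusted p = 0.149) in hematogenous libraries.

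Wdr74 encodes a factor that is released from the large subunit precursor late in the nucleus. Wdr74 stood at 117, 100.1, 104 and 105 CPM in culture 1 to 4, at 132, 129, 127 and 199.5 in lymphatic 1 to 4 and at 70.7, 79.9, 67.6 and 77.5 in hematogenous 1 to 4. The 3 groups did not overlap: lymphatic libraries were the highest, lymphatic 4 far above the others, and hematogenous libraries the lowest. Wdr74 had a log2 difference of 0.46 ± 0.14 (SE) for lymphatic against culture (adjusted p = 0.0273), -0.53 ± 0.14 for hematogenous against culture (adjusted p = 0.0133) and 0.99 ± 0.14 for lymphatic against hematogenous (adjusted p = 0.000392). Without lymphatic 4 the log2 differences were 0.27, -0.53 and 0.80, with adjusted p of 0.0167, 5.10e-05 and 5.10e-06. The difference between the routes was the largest of the 35 genes over all libraries and stayed called without lymphatic 4.

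Nop16 encodes a late nucleolar large subunit factor. Its level was at 113, 96.4, 104 and 98.1 CPM in culture 1 to 4, at 132, 124, 133 and 257 in lymphatic 1 to 4 and at 118, 137, 122 and 132 in hematogenous 1 to 4. Lymphatic 4 was far above any other library, and lymphatic 1 to 3 lay within the hematogenous range. Nop16 had a log2 difference of 0.65 ± 0.20 (SE) for lymphatic against culture (adjusted p = 0.0256), 0.31 ± 0.20 for hematogenous against culture (adjusted p = 0.284) and 0.34 ± 0.20 for lymphatic against hematogenous (adjusted p = 0.226). Without lymphatic 4 they were 0.32, 0.31 and 0.017, with adjusted p of 0.00573, 0.00408 and 0.897. Mrto4, a relative of a ribosomal stalk protein that holds its place during assembly, stood at 115, 95.7, 102 and 94.6 CPM in culture 1 to 4, at 137, 116, 129.7 and 231 in lymphatic 1 to 4 and at 107, 120.2, 103 and 114 in hematogenous 1 to 4. Lymphatic 4 was the highest, and lymphatic 2 lay between hematogenous libraries. Mrto4 had a log2 difference of 0.59 ± 0.18 (SE) for lymphatic against culture (adjusted p = 0.0272), 0.12 ± 0.18 for hematogenous against culture (adjusted p = 0.683) and 0.47 ± 0.18 for lymphatic against hematogenous (adjusted p = 0.0772). Mrto4 has 2 pseudogenes named after it, which can share reads with it.

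The other 6 large subunit genes were not called against culture. Ddx18, an RNA helicase, was higher in lymphatic than in hematogenous libraries by 0.41 ± 0.10 (adjusted p = 0.0121) on the log2 scale. Nop2, an rRNA methyltransferase, had a log2 difference of -0.32 ± 0.12 (adjusted p = 0.052) for hematogenous against culture over all libraries and -0.32 ± 0.098 (adjusted p = 0.015) without lymphatic 4. Rrs1 and Ppan act in early large subunit assembly, and Ebna1bp2 is a further factor of it. All 3 had their highest level in lymphatic 4, at 182 CPM for Rrs1, 224 CPM for Ppan and 324 CPM for Ebna1bp2, against at most 119, 172 and 184 CPM in the other libraries. Their log2 difference for lymphatic against culture was 0.21 ± 0.17 (adjusted p = 0.393) for Rrs1, 0.30 ± 0.23 (adjusted p = 0.377) for Ppan and 0.48 ± 0.19 (adjusted p = 0.0751) for Ebna1bp2, and without lymphatic 4 it was -0.05, 0.043 and 0.18.

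Among the enzymes, Odc1 rose in lymphatic against culture libraries and Cad did not. Odc1 encodes ornithine decarboxylase, which makes putrescine at the start of polyamine synthesis. Its level was at 476, 450.4, 468 and 413 CPM in culture 1 to 4, at 676, 743, 632 and 719.5 in lymphatic 1 to 4 and at 417, 455, 466 and 466 in hematogenous 1 to 4. Lymphatic libraries were above all others by a clear gap, lymphatic 4 in the midst of its group, and culture and hematogenous libraries overlapped. Odc1 had a log2 difference of 0.62 ± 0.096 (SE) for lymphatic against culture (adjusted p = 0.000324), -0.0021 ± 0.095 for hematogenous against culture (adjusted p = 0.992) and 0.62 ± 0.096 for lymphatic against hematogenous (adjusted p = 0.00059). Leaving out lymphatic 4 gave 0.59, -0.00094 and 0.59, with adjusted p of 2.90e-05, 0.993 and 4.36e-05.

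Srm encodes spermidine synthase, which uses the putrescine. Srm stood at 192, 199, 157 and 162 CPM in culture 1 to 4, at 217, 159.7, 242 and 375 in lymphatic 1 to 4 and at 158, 183, 152 and 133 in hematogenous 1 to 4. Lymphatic 4 was far above the others and lymphatic 2 lay among the culture and hematogenous libraries. Srm had a log2 difference of 0.49 ± 0.21 (SE) for lymphatic against culture (adjusted p = 0.0983), -0.18 ± 0.21 for hematogenous against culture (adjusted p = 0.583) and 0.67 ± 0.21 for lymphatic against hematogenous (adjusted p = 0.0337). Without lymphatic 4 the values were 0.21, -0.17 and 0.39, with adjusted p of 0.238, 0.288 and 0.0382. The call between the routes was lost without hematogenous 1, 3 or 4, with limma-voom, with the replicate block and in a fit of the 2 groups alone. Cad encodes the enzyme of the opening steps of pyrimidine synthesis. It stood at 395, 442, 356 and 365 CPM in culture 1 to 4, 365, 238, 431 and 183 CPM in lymphatic 1 to 4 and 349.5, 403, 311 and 269.5 CPM in hematogenous 1 to 4. Lymphatic 2 and lymphatic 4 were below all culture libraries and lymphatic 1 and lymphatic 3 were within their range, and no comparison passed the test.

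**Figure D3:**
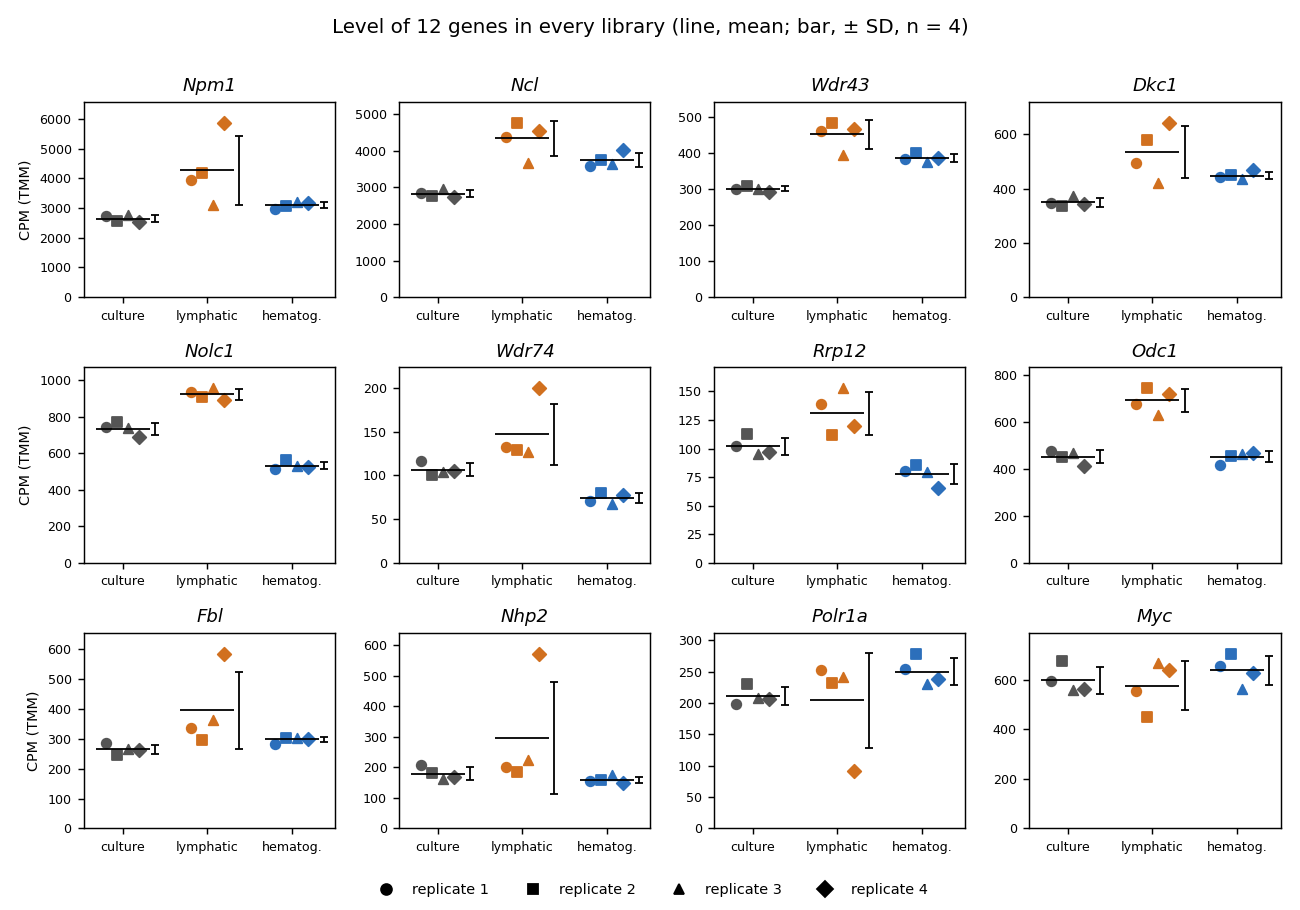
Each panel shows the CPM of 1 gene in every library (points, shaped by replicate number, coloured by group) with the group mean (line) and ± SD (bar, n = 4), on linear axes that start at 0. The groups of Nolc1 and Wdr74 do not overlap, and lymphatic 4 is the highest point for Nhp2 (571 CPM) and the lowest for Polr1a (91.2 CPM).

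Myc was not called in any comparison. It stood at 595, 676, 560.4 and 563 CPM in culture 1 to 4, at 553, 449, 666 and 638 in lymphatic 1 to 4 and at 657, 704, 565 and 625 in hematogenous 1 to 4. The 3 groups overlapped, and lymphatic 2 was the lowest library. Myc had a log2 difference of -0.054 ± 0.13 (SE) for lymphatic against culture (adjusted p = 0.798), 0.091 ± 0.13 for hematogenous against culture (adjusted p = 0.668) and -0.15 ± 0.13 for lymphatic against hematogenous (adjusted p = 0.447). Its counts may hold transcripts of the transgene beside those of the endogenous gene. Of 9 tested genes of the MYC network, the MYC partner MAX and related factors, 0 rose and 2 fell in lymphatic against culture libraries, where 13.4% and 13% of all tested genes were called (edgeR; 0 were higher at an unadjusted p under 0.05). Those 2 were the MAX-binding repressors Mxd4 (log2 difference -0.67 ± 0.15, adjusted p = 0.00527) and Mnt (-0.62 ± 0.17, adjusted p = 0.0167). In hematogenous against culture libraries 1 rose, Mlxip (0.91 ± 0.23, adjusted p = 0.0075), and 2 fell, Mlx (-0.56 ± 0.11, adjusted p = 0.00137) and Mxi1 (-0.32 ± 0.097, adjusted p = 0.022), where 13.9% of all tested genes were called in each direction. Between the routes 2 were higher in lymphatic libraries, Mlx (0.54 ± 0.11, adjusted p = 0.00294) and Mxi1 (0.36 ± 0.096, adjusted p = 0.016), and 4 were lower, Mlxip (-0.84 ± 0.23, adjusted p = 0.0173), Mxd3 (adjusted p = 0.0435), Mnt and Mxd4, where 11.4% and 10.9% of all tested genes were called.

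Levels were compared between genes per kilobase of annotated transcript. Npm1 was highest at 2045 CPM per kilobase over all libraries, followed by Ncl at 443, Nop58 at 300.4, Fbl at 267 and Nop56 at 260.4 CPM per kilobase. Polr1a (24.1), Rrp12 (23.9) and Utp20 (24.9 CPM per kilobase) were the lowest. The annotated Ncl transcript is 8202 bases long, so its level per kilobase depends on which transcript the cells use, which was not measured. Replicates within a group agreed closely except in the lymphatic group: the median coefficient of variation of the 35 genes was 6.23% in culture, 6.73% in hematogenous and 26.7% in lymphatic libraries, or 10.6% in lymphatic 1 to 3.

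Levels in lymphatic 4, relative to lymphatic 1 to 3, varied with transcript length. The 12 genes with the shortest annotated transcripts (at most 1756 bases) were all higher in lymphatic 4 than in the mean of lymphatic 1 to 3, with a median log2 difference of 0.85 and a highest value of 1.49 for Nhp2. Of the 12 with the longest (at least 3037.5 bases), 8 were lower, with a median log2 difference of -0.36 and a lowest value of -1.41 for Polr1a. Over the 35 genes the Spearman correlation of this difference with length was -0.79, and over 13320 tested genes with a length it was -0.57. These points come from the same libraries and share their depth, so the correlations are descriptions. Lymphatic 2 differed with base composition: its difference from the mean of the other lymphatic libraries had a Spearman correlation of -0.81 with transcript GC content over the 35 genes and -0.62 over all tested genes with a value. Such trends were not particular to these libraries. Each library was set against the mean of the others of its group. Over the 35 genes the correlation with length was -0.75 in culture 1 and 0.83 in lymphatic 1, whose reference holds lymphatic 4, and that with GC content was -0.74 in culture 3, -0.73 in hematogenous 4 and 0.69 in hematogenous 2. Over all tested genes with a value it was -0.35 for length in culture 1 and 0.47 in lymphatic 1, and -0.35 for GC content in culture 3, -0.32 in hematogenous 4 and 0.18 in hematogenous 2. A rank correlation does not give the size of the shift. A fit with offsets for transcript length and GC content in each library, chosen after the data were seen, called 22 of the 35 genes higher and 0 lower in lymphatic against culture libraries. It called 4342 of 13320 tested genes there in either direction, against 3569 of 13535 without offsets. Of the 17 calls made without offsets 15 were kept, and those of Gnl3 and Wdr12 were lost. In hematogenous against culture libraries 5 of 8 calls were kept, and those of Ncl, Dkc1 and Pes1 were lost. Between the routes 12 of 13 calls were kept.

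**Figure D4:**
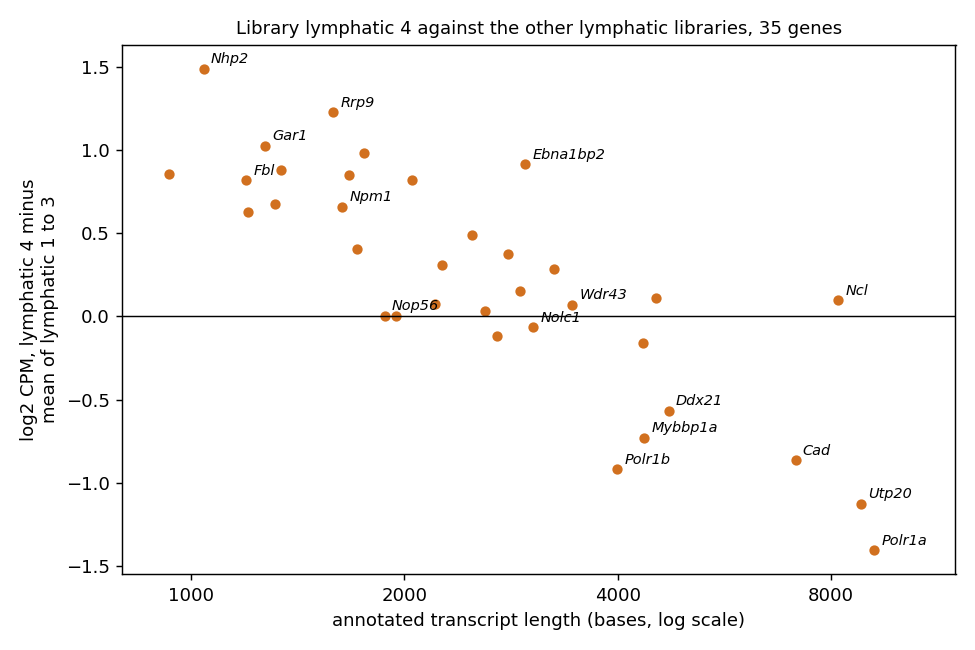
Each point is 1 of the 35 genes: its annotated transcript length in bases (horizontal, log axis) and its log2 CPM in lymphatic 4 minus the mean of lymphatic 1 to 3 (vertical). The 12 shortest lie above 0, up to 1.49 for Nhp2, and of the 12 longest 8 lie below it, down to -1.41 for Polr1a, and 4 above.

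The rest of the ribosome biogenesis machinery was read from lists of further genes. Of 123 such genes, 45 rose and 0 fell in lymphatic against culture libraries (median log2 difference 0.31), where 13.4% of all tested genes were called higher and 13% lower. By edgeR 2 of them were lower at an unadjusted p under 0.05. With lymphatic 4 left out the count was 58 higher and 1 lower, against 17.7% and 17.9% of all tested genes. In hematogenous against culture libraries 17 rose and 6 fell (median 0.052), and the share that rose is near the 13.9% of all tested genes called in each direction. Leaving that library out gave 31 and 15, against 21.8% and 21.3%. Between the routes 32 were higher and 1 lower in lymphatic libraries (median 0.26), against 11.4% and 10.9% of all tested genes, and 41 and 4 without lymphatic 4, against 15.1% and 16.4%. Within them, 22 of 49 small subunit processome genes rose in lymphatic against culture libraries, among them Pno1 (0.82 ± 0.15 on the log2 scale, adjusted p = 0.00114), a late factor of the small subunit. Of 48 large subunit genes 17 rose, among them Rpf2 (0.93 ± 0.19, adjusted p = 0.00231), which places the 5S particle, and the helicase Ddx24 (0.67 ± 0.10, adjusted p = 0.000291). Of 16 further genes of the RNA polymerase I machinery 3 rose, among them the selectivity factor subunit Taf1b (0.70 ± 0.15, adjusted p = 0.00287). Of 10 snoRNP partners 3 rose, among them Snu13 (0.69 ± 0.15, adjusted p = 0.00305), a protein of box C/D particles.

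In hematogenous libraries Taf1b also rose (0.89 ± 0.15 on the log2 scale, adjusted p = 0.000396), and Polr1d, a subunit shared by RNA polymerases I and III, fell (-0.63 ± 0.20, adjusted p = 0.0294). Brix1, an early large subunit factor, rose by 0.58 ± 0.14 (adjusted p = 0.00719) and Dcaf13, a small subunit factor, by 0.55 ± 0.12 (adjusted p = 0.00379). Rcl1, a small subunit processome protein, fell in hematogenous libraries (-0.36 ± 0.12, adjusted p = 0.0338) and was higher in lymphatic than in hematogenous libraries (0.94 ± 0.12, adjusted p = 0.000146). Bcdin3d, known as an RNA phosphate methyltransferase, was counted here because it stood in the list of large subunit genes. It was the 1 gene of the 123 lower in lymphatic than in hematogenous libraries over all libraries (-0.97 ± 0.17, adjusted p = 0.0012). Without lymphatic 4 Rrp7a, Brix1 and Nop53 were called lower too.

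Cytosolic ribosomal protein genes, whose products these factors assemble, were tested with the same fit. Of 79 tested, 0 rose and 0 fell in lymphatic against culture libraries by edgeR (8 higher and 0 lower at an unadjusted p under 0.05), where the median log2 difference was 0.30 over all libraries and -0.15 without lymphatic 4, with 1 called higher and 8 lower. Over all libraries the share called is below the 13.4% and 13% of all tested genes. Without lymphatic 4 the share called in each direction is below the 17.7% and 17.9% of all tested genes called higher and lower. In hematogenous against culture libraries 1 rose and 1 fell (median -0.14), where 13.9% of all tested genes were called in each direction, and 6 and 18 did without lymphatic 4, against 21.8% and 21.3%. Between the routes 6 were higher and 0 lower by edgeR (16 and 0 at an unadjusted p under 0.05), against 11.4% and 10.9% of all tested genes, with a median of 0.40 over all libraries and -0.016 without lymphatic 4. Many of these genes have near-identical pseudogenes, so their counts are uncertain.

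snoRNAs are cut from introns of host genes, and among the long noncoding hosts Snhg1 rose in one lymph node group and fell in the other. Snhg1 was at 323 ± 28.5 CPM in culture, 464 ± 129.8 CPM in lymphatic and 202 ± 6.86 CPM in hematogenous libraries (mean ± SD, n = 4). It rose in lymphatic (0.52 ± 0.16, adjusted p = 0.029) and fell in hematogenous against culture libraries (-0.68 ± 0.16, adjusted p = 0.00618). Snhg1 and Wdr74, which moved alike, are neighbours in the RefSeq annotation. Gas5 fell in hematogenous libraries (-0.76 ± 0.16, adjusted p = 0.00233) and was higher in lymphatic than in hematogenous libraries (1.13 ± 0.16, adjusted p = 0.000327). Of 11 tested host genes 3 rose and 0 fell in lymphatic (6 and 0 at an unadjusted p under 0.05), and 1 rose and 2 fell in hematogenous against culture libraries, where 13.4% and 13% and then 13.9% and 13.9% of all tested genes were called. The counts without lymphatic 4 were 3 and 1 in lymphatic and 1 and 4 in hematogenous libraries. In that fit 17.7% and 17.9%, and then 21.8% and 21.3%, of all tested genes were called. Among the 35 genes, 8 hold an annotated snoRNA on the same strand (Ncl, Gnl3, Nop56, Nop58, Dkc1, Wdr43, Ppan and Odc1). Of these 8, 7 rose in lymphatic against culture libraries, and of the other 27, 10 did. This was noticed after the values were seen and was not tested, and the 8 genes were more abundant (median level 477 against 180.1 CPM).

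Nucleotide and polyamine genes outside the 35 moved in part. Of 18 purine and pyrimidine genes, 9 rose and 1 fell in lymphatic against culture libraries, where 13.4% of all tested genes were called higher and 13% lower. Among the 9 were Prps1 (0.77 ± 0.096 on the log2 scale, adjusted p = 5.04e-05) and Prps2 (0.75 ± 0.12, adjusted p = 0.000322), the synthetases of the ribose phosphate donor. Both also rose in hematogenous libraries, by 0.66 ± 0.096 (adjusted p = 0.000131) and 0.70 ± 0.12 (adjusted p = 0.00042). The gene that fell was Impdh1 (-0.97 ± 0.17, adjusted p = 0.000834 in lymphatic, and -1.17 ± 0.17, adjusted p = 0.000158 in hematogenous libraries), which acts in guanine nucleotide synthesis. Of 15 polyamine and hypusine genes, 3 rose and 3 fell in lymphatic against culture libraries, and the same shares of all tested genes stand beside them. Amd1, which makes the aminopropyl donor used by Srm, rose (0.61 ± 0.13, adjusted p = 0.00412), and Sat1, which acetylates polyamines for removal, fell (-0.65 ± 0.16, adjusted p = 0.00753).

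Other MYC growth targets numbered 28, of which 15 rose and 1 fell in lymphatic against culture libraries, where 13.4% of all tested genes were called higher and 13% lower. In hematogenous against culture libraries 4 rose and 3 fell, and the share that rose is near the 13.9% of all tested genes called higher. Without lymphatic 4, 11 of the 28 rose and 4 fell, where 21.8% and 21.3% of all tested genes were called. The share that rose is above the background in that fit. Eif4e, the cap-binding translation factor, rose in lymphatic libraries (0.60 ± 0.11 on the log2 scale, adjusted p = 0.00145), as did the splicing regulator Hnrnpa1 (0.66 ± 0.11, adjusted p = 0.000633). Tfrc, the transferrin receptor, fell in both, from 1274 ± 55.2 CPM in culture to 899.9 ± 227 CPM in lymphatic and 578 ± 56.4 CPM in hematogenous libraries (mean ± SD, n = 4). Its log2 difference was -0.50 ± 0.16 (adjusted p = 0.0327) and -1.14 ± 0.16 (adjusted p = 0.000107).

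**Figure D5:**
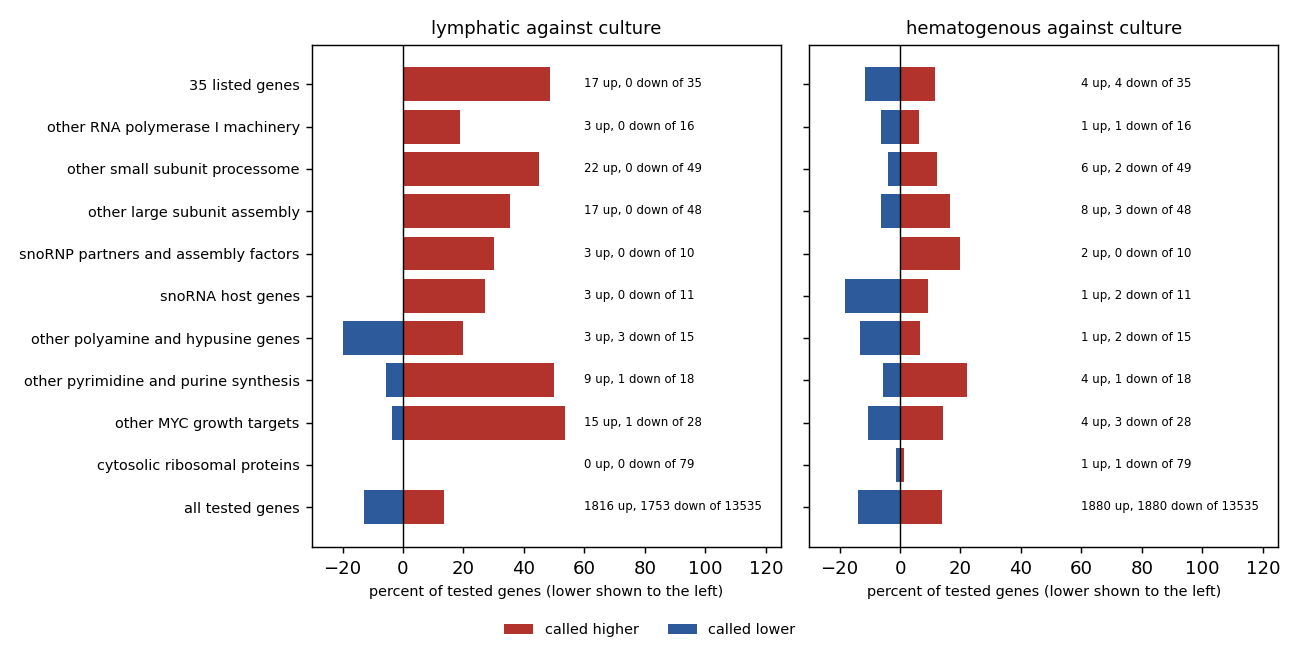
Bars give the percent of tested genes of each list (rows) called higher (red, to the right) or lower (blue, to the left) at edgeR adjusted p under 0.05, against culture in lymphatic (left panel) and hematogenous libraries (right panel). In the left panel 17 of the 35 listed genes were called higher against 1816 of 13535 tested genes, and in the right panel 4 were called higher and 4 lower.

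The libraries are stranded per the labels, but the strand setting used in counting is not given in the sources used here. In the annotation 12 of the 35 genes share bases with a gene on the opposite strand (Mybbp1a, Gnl3, Polr1a, Nop56, Rrp9, Dkc1, Nhp2, Nop14, Wdr43, Pes1, Bop1 and Wdr12), so reads of those partners may be part of their counts.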

How the data were processed

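Poly(A) RNA of 12 libraries (4 culture, 4 lymphatic, 4 hematogenous, grouped by their titles) was analysed from the deposited tables of raw read counts per Ensembl gene, which hold no normalization. The labels' protocols give stranded single-end sequencing, and FastQC 0.11.9, Trimmomatic 0.39, HISAT2 2.1.0, HTSeq 2.0.2 and the build GRCm39 are named in the submitters' processing notes. Strand setting and annotation release of the counting are not given in the sources used here. Summary lines, which hold the 30.3% to 36.5% of reads that were assigned to no gene, did not enter library sizes or tests. Symbols and transcript lengths came from GENCODE vM21, an annotation of an older build, which matched 91.8% of IDs, so gene positions are not given.

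Genes were tested in R 4.3.3 with edgeR 4.0.16 (TMM factors, filterByExpr, quasi-likelihood F test, two-sided) with group as the only term over the 12 libraries and 9 residual degrees of freedom. Benjamini-Hochberg adjustment ran over every tested gene of a comparison, with calls at 0.05. CPM use TMM factors. SE are approximate, being the log2 difference over the square root of F. The code was tested on simulated data. Alternatives were other scalings, DESeq2 1.42.0, limma 3.58.1 with voom, no filter, a replicate block, fits of 2 groups only, and leaving out libraries. Offsets for transcript length and GC content were added after the data were seen.

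The 35 genes, the other lists and the tests were chosen with earlier results of these data known. Of 300 listed symbols 294 were matched. Values in every library are given for at most 20 called genes, by largest change in any comparison, and for Myc. Library values of uncalled genes (Mybbp1a, Ddx21, Polr1a, Polr1b, Rrp9, Gar1, Utp20 and Cad) were added after they were seen. From other lists, genes come from up to 2 called per direction with at least 10 CPM. Replicate numbers were checked for pairing: deviations from group means in same-numbered libraries correlated at -0.181 to 0.0919 and never over 0.1, so they were treated as names only. No libraries held identical counts. Read counts have no molecular identifiers, and the SE given reflect the spread among these libraries, which may be technical.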

Additional observations from a re-analysis of the deposited data

Results flagged for a closer look

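In 105 combinations of the 35 genes and 3 groups, 8 had a library far from the other libraries of its group, its gap to the nearest one filling most of the group's range. Chance alone flags about 1 in 20 groups. Of the 8, 6 were lymphatic 4. It was far below lymphatic 1 to 3 for Polr1a (91.2 CPM against 232 to 253) and Polr1b (96.9 CPM against 182 to 184). It was far above them for Nhp2 (571 CPM against 186 to 224), Nop16 (257 CPM against 124 to 133), Wdr74 (199.5 CPM against 127 to 132) and Rrs1 (182 CPM against 96.0 to 109.8). The share of counts in ribosomal protein genes also stood apart there, at 15.9% against 7.56% to 8.78% in lymphatic 1 to 3. The other two were Fbl in hematogenous 1 (284 CPM against 301 to 304) and Nop14 in culture 4 (129.6 CPM against 147 to 149.9), both of them low and by small amounts.

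Levels differed between the routes, tested directly with edgeR, for 13 genes, each higher in lymphatic than in hematogenous libraries. Of all tested genes 11.4% were called higher and 10.9% lower in this comparison. Of the 13 calls, 7 held when each library was left out in turn and under all 10 other settings. The log2 differences were 0.99 for Wdr74, 0.89 for Nhp2, 0.79 for Nolc1, 0.74 for Rrp12, 0.69 for Polr1c, 0.67 for Srm and 0.62 for Odc1. They were 0.46 for Npm1, 0.45 for Nop56, 0.43 for Gnl3, 0.42 for Wdr12, 0.42 for Nop14 and 0.41 for Ddx18.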

How the results depend on the processing

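No gene among the 35 was called lower in lymphatic against culture libraries under any of the 22 alternatives. The 17 called higher became 8 in a fit of these groups alone and 9 to 19 when each library was left out, with 9 without culture 2, 3 or 4. The median log2 difference of all 35 genes was 0.27 to 0.44 over those fits, and 0.27 with lymphatic 4 and culture 4 both out. All genes called in lymphatic against culture libraries, 3569 over 12 libraries, were 2600 in a fit of these groups alone and 2664 to 4908 with each library left out. In hematogenous against culture libraries the 4 called higher became 14 in a fit of these groups alone, 1 with no filter, 2 with the replicate block, 8 with lymphatic 4 and culture 4 out, 7 with length and GC offsets, and 2 to 11 when each library was left out. The 4 called lower became 2 with no filter. All genes called there, 3760 over 12 libraries, were 6344 in a fit of these groups alone and 3125 to 5930 with each library left out, the highest without lymphatic 4. Between the routes the 0 called lower became 1 with no filter, with lymphatic 4 and culture 4 out and with length and GC offsets, and 0 to 1 with each library left out. All genes called there, 3012 over 12 libraries, were 1734 in a fit of these groups alone and 2002 to 4333 with each library left out. The median was 0.23 to 0.44 with each library left out, 0.23 with lymphatic 4 and culture 4 out, and 0.27 with length and GC offsets. Gar1 ran from -0.29 (without lymphatic 4) to 0.19 between the routes with each library left out, and was -0.29 without lymphatic 4 and culture 4. With the replicate block 12 of 17, 6 of 8 and 10 of 13 calls were kept. Fits with fewer libraries have fewer degrees of freedom, and the number of calls rose in some of them and fell in others. The causes of these shifts were not tested.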
